A study of Mus musculus with 3 samples.

Results

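Circadian clock genes were followed in mouse sarcoma cells in which doxycycline switches on EWS/ATF1. This fusion protein puts a part of the RNA-binding protein EWSR1 onto ATF1, a DNA-binding factor related to CREB. The genes were taken by symbol: Per1, Per2, Per3, Cry1, Cry2, Arntl, Clock, Nr1d1, Nr1d2 and Dbp. All 10 were found, each with 1 probe set, among 19938 named genes and 28856 probe sets. The rule names symbols and uses no measured value, although it was written with earlier results of these data known. Expression was read on 3 Affymetrix gene arrays, 1 for each group, and every animal or culture had a mixed genetic background of the strains C57/BL6, 129 and ICR. The array labelled tumor carried RNA taken directly from a soft tissue sarcoma of an EWS/ATF1-inducible mouse that had received doxycycline for 3 months. The array labelled high doxycycline carried RNA of cultured tumor cells 24 h after 0.2 microg/ml doxycycline was added, and the array labelled control carried RNA of cultured tumor cells at the same time with 0 microg/ml. The sample descriptions give both cultures the same line number and the tumor another. The promoter and the cell type that drive the transgene, the animals' age and the hour of day at which RNA was taken are not stated in the labels.

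The clock is a feedback loop that runs in nearly every mammalian cell. The proteins CLOCK and ARNTL (also called BMAL1) bind E-box DNA motifs together and switch on the Per and Cry genes, whose products return to the nucleus and block CLOCK and ARNTL. A second loop is closed by NR1D1 and NR1D2 (the REV-ERB receptors), which repress Arntl, and DBP is an output factor that carries the rhythm to other genes through D-box motifs. Per1 and Per2 are also acute response genes: cAMP signalling, serum and glucocorticoids switch them on, and CREB-family factors act on them through cAMP response elements (CREs), the motif class that ATF1 itself binds.

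The stretches before the starts of 4 members are printed here because these members differed by at least 2-fold between arrays and had a RefSeq promoter window, and because clock and CRE motifs lie in such stretches. Each holds the 250 bases before a transcript start, 5′ to 3′ on the gene's strand, from RefSeq sequence of the build GRCm38.p6, and capitals mark every match to the motifs searched. The first window of Per1 lies at chr11:69098699-69098948 (plus strand) and the second, before another start of Per1, at chr11:69099902-69100151 (plus strand). That of Cry2 lies at chr2:92434070-92434319 (minus strand), the first of the 3 windows of Clock at chr5:76304793-76305042 (minus strand) and that of Dbp at chr7:45704997-45705246 (plus strand).
Per1, first window: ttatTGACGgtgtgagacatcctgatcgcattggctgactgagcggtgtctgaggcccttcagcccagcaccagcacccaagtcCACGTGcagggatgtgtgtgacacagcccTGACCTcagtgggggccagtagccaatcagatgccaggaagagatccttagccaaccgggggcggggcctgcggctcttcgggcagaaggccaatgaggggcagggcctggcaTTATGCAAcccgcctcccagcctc
Per1, second window: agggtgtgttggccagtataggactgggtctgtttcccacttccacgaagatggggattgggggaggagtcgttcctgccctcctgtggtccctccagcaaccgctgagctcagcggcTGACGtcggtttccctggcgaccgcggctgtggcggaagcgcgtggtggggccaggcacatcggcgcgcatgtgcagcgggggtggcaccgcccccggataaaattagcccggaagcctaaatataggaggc
Cry2: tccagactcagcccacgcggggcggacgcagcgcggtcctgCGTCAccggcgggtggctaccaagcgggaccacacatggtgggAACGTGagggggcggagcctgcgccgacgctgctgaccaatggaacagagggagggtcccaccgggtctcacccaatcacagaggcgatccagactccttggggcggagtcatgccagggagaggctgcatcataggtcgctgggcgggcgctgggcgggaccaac
Clock: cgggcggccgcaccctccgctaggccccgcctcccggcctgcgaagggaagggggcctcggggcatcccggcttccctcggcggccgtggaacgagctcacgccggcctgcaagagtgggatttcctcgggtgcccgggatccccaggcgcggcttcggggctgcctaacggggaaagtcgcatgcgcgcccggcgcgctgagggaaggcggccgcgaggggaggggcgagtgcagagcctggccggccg
Dbp: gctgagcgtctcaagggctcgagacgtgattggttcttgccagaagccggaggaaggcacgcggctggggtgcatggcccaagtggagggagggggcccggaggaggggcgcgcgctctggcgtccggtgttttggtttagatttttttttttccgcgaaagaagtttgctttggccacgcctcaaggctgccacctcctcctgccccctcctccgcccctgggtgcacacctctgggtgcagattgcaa

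Motifs were searched on both strands of the whole windows, which run 250 bases before to 50 bases after a start. The search covered 32851 windows of all genes and those of the members, of which 9 of 10 had an entry. Per2 had none, so that its promoter was not searched. The motifs were the full CRE TGACGTCA, its core TGACG (which a full CRE also holds), the E-box CACGTG, the E-box variant CACGTT, the D-box as TTATGTAA or TTATGCAA, and the nuclear receptor motif AGGTCA. A member was counted where any of its windows held a match (2 windows for Per1 and for Arntl, 3 for Clock). The shares below are of single windows, so that the member counts and the shares are not in the same unit. The full CRE was in none of the members' windows and in 1.79% of all windows. The CRE core was in windows of 3 members, Per1 (in both of its windows), Cry1 and Cry2, and in 20.8% of all windows. The first Per1 window held, in capitals above, a CRE core, an E-box, the receptor motif on the opposite strand and a D-box. An E-box stood in windows of Per1 and Cry1 (7.15% of all windows), its variant in those of Cry1, Cry2 and Nr1d1 (4.68%), and a D-box in those of Per1 and Per3 (1.66%), where Per3 had 2. The receptor motif was in windows of 4 members (16.3%), Per1, Arntl, Clock and Nr1d2. The window of Dbp held no match to any of the 6 motifs. These matches are letters in short windows and not measured binding.

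With 1 array in each group no difference could be tested. All values describe these 3 arrays, the number of arrays limits the precision, and no p-value is given. Values are intensities on a linear scale, as deposited, and differences are taken between log2(intensity + 1) values, so that folds are on that scale. A gene was compared, and is called bright, where its higher value of a pair exceeded the median of the array that gave it (219.8, 226.7 and 250.02 on the arrays labelled tumor, high doxycycline and control), and a gene was counted where it differed by at least 2-fold. Each member has only 1 probe set, so that no second probe set of the same gene could check it. For genes with several bright probe sets, the range of their log2 differences had a percentile 90 of 1.55 (tumor against control), 1.43 (high doxycycline against control) and 0.32 (tumor against high doxycycline), and member differences are read against these values below. Exactly equal intensities stood on all 3 arrays for 4314 probe sets (15.0%), for a reason that the labels do not state.

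The array labelled control went against its label. It held transcripts of tissue cell types that a culture of tumor cells need not hold, and the array labelled tumor had lower marker sums. The 10 macrophage markers (such as Lyz2 and C1qa) summed to 1268 on the array labelled tumor, 2290 on high doxycycline and 25166 on control, and 1, 2 and 10 of them lay above the array median. The 10 endothelial markers summed to 1962, 2871 and 13157 in the same order (2, 2 and 9 above the median), the 10 skeletal muscle markers to 2283, 2094 and 27554 (3, 4 and 10), and the 10 fibroblast and matrix markers to 6701, 7228 and 59171 (8, 8 and 10). Single markers went the other way. The muscle marker Mb had 754 on tumor, 378 on high doxycycline and 464 on control, and the macrophage marker Cd14 had 158, 914 and 650. No marker was at 0, but no probe set was, so that this does not show detection. The lowest values of any probe set were 20.7, 21.0 and 20.9 in the same order. The directions below are therefore between arrays named by their labels, and say nothing of how doxycycline or growth as a tumor acts on the clock. Whether labels were exchanged between arrays was not tested, and an exchange of tumor and control would turn the sign of tumor against control and change which arrays each other comparison sets side by side. In every comparison with the array labelled control these marker sums differed as well, and their part in the clock gene differences was not tested. In such bulk RNA, fewer cells of a type and less RNA per cell cannot be told apart.

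**Figure D1:**
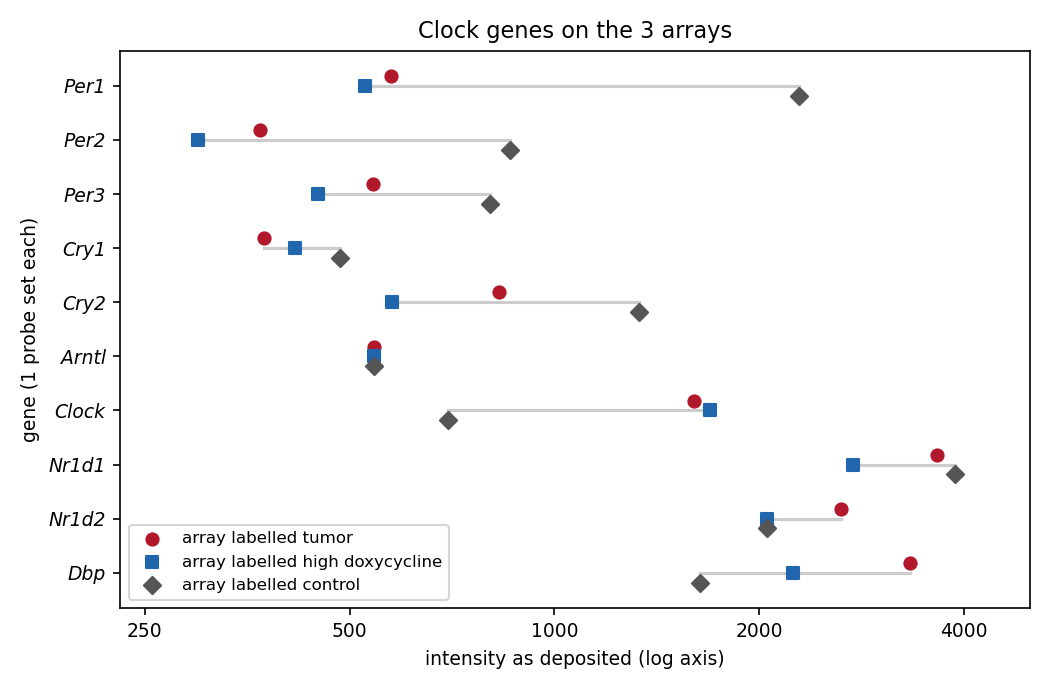
Deposited intensity (log axis) of the 10 clock genes, 1 row per gene and 1 symbol per array. Per1, Per2, Per3, Cry1, Cry2 and Nr1d1 were highest on the array labelled control, Clock was lowest there, and Arntl had the same value on all 3 arrays.

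The Period genes encode the repressors whose rise and fall paces the loop. Per1 had an intensity of 575 on the array labelled tumor, 527 on high doxycycline and 2287 on control. The array labelled control stood far above the other two, which lay close together. The log2 difference was -1.99 for tumor against control (3.98-fold dimmer) and -2.12 for high doxycycline against control (4.33-fold dimmer). Of all bright genes, 96.5% and 97.4% had a higher difference in these comparisons, and both values went beyond percentile 90 of the probe set range.

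Per2, which like Per1 answers acute signals, had 370 on the array labelled tumor, 299 on high doxycycline and 860 on control. Its order of arrays was the same as that of Per1, with a smaller step. It was 2.32-fold dimmer on tumor than on control (-1.22) and 2.87-fold dimmer on high doxycycline than on control (-1.52), and 92.3% and 95.4% of bright genes lay higher. The second of these values went beyond percentile 90 of the probe set range and the first did not. Per3, a paralogue that is less needed for rhythm than Per1 and Per2, had 542 on the array labelled tumor, 449 on high doxycycline and 805 on control. Its differences against control were -0.57 for tumor (1.48-fold dimmer) and -0.84 for high doxycycline (1.79-fold dimmer), below the 2-fold limit. All 3 Period genes were therefore brightest on the array labelled control and dimmest on the array labelled high doxycycline.

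The cryptochromes are the partners of the Period proteins and the stronger repressors of CLOCK and ARNTL. Cry2 had 828 on the array labelled tumor, 577 on high doxycycline and 1330 on control. Its difference against control was -0.68 for tumor (1.61-fold dimmer) and -1.20 for high doxycycline (2.30-fold dimmer). Both arrays lay below control, and the 2-fold limit was passed in the second comparison. Cry1 had 374 on the array labelled tumor, 416 on high doxycycline and 483 on control, with differences against control of -0.37 for tumor and -0.22 for high doxycycline. Cry1 thus varied less than Cry2 over the 3 arrays, and it was the member for which the array labelled tumor lay lowest.

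The activators differed from each other. Clock, which encodes the DNA-binding partner of ARNTL, had 1603 on the array labelled tumor, 1695 on high doxycycline and 699 on control. The arrays labelled tumor and high doxycycline lay close together and well above control. Clock was 2.29-fold brighter on tumor than on control (log2 difference 1.20) and 2.42-fold brighter on high doxycycline than on control (1.28). Of bright genes, 14.2% and 11.8% had a higher difference, and neither value went beyond percentile 90 of the probe set range. Arntl, the gene for the other subunit, had 543.6 on each of the 3 arrays. A value repeated exactly was not rare in the deposited table, so that it gives no measure of how Arntl varied.

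The receptors of the secondary loop and the output factor Dbp each had their own order of arrays. Nr1d1, a haem-binding receptor that represses Arntl, had 3654 on the array labelled tumor, 2745 on high doxycycline and 3885 on control. The arrays labelled tumor and control lay close together and high doxycycline below them, with differences against control of -0.089 for tumor (0.097 with arrays scaled to a common median) and -0.50 for high doxycycline. Nr1d2, the related receptor, had 2638 on the array labelled tumor and exactly the same value, 2055, on high doxycycline and control, which gave a difference of 0.36 for tumor against either of them. Dbp, the D-box output factor, had 3333 on the array labelled tumor, 2244 on high doxycycline and 1635 on control. It was 2.04-fold brighter on tumor than on control (1.03), just past the 2-fold limit, and 1.37-fold brighter on high doxycycline than on control (0.46).

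Counted over the members, 2 of 10 were at least 2-fold dimmer on tumor than on control (Per1 and Per2) and 2 were at least 2-fold brighter (Clock and Dbp). Among all 12010 bright genes these shares were 10.2% dimmer and 18.5% brighter, so that the member counts lay near what the whole array showed. Between high doxycycline and control, 3 of 10 were at least 2-fold dimmer (Per1, Per2 and Cry2), against 8.45% of 11933 bright genes, and 1 was brighter (Clock), against 17.4%. The median log2 difference of the 10 members was -0.23 for tumor against control and -0.36 for high doxycycline against control, where the medians of all bright genes were 0.075 and 0.083. Over the 9 settings tried, the members' median ran from -0.36 to -0.044 in the first comparison and from -0.67 to -0.22 in the second. Members with a difference below 0 numbered 6 of 10 in each of these comparisons, against 38.9% and 36.9% of bright genes. The comparisons share the array labelled control, so that their counts are not separate evidence. Under quantile normalization of the 3 arrays no member was at least 2-fold brighter on tumor than on control (Clock 0.97 and Dbp 0.77). Per1 and Per2 were still at least 2-fold dimmer. Of all bright genes, 16.2% were brighter and 11.4% dimmer in that setting.

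**Figure D2:**
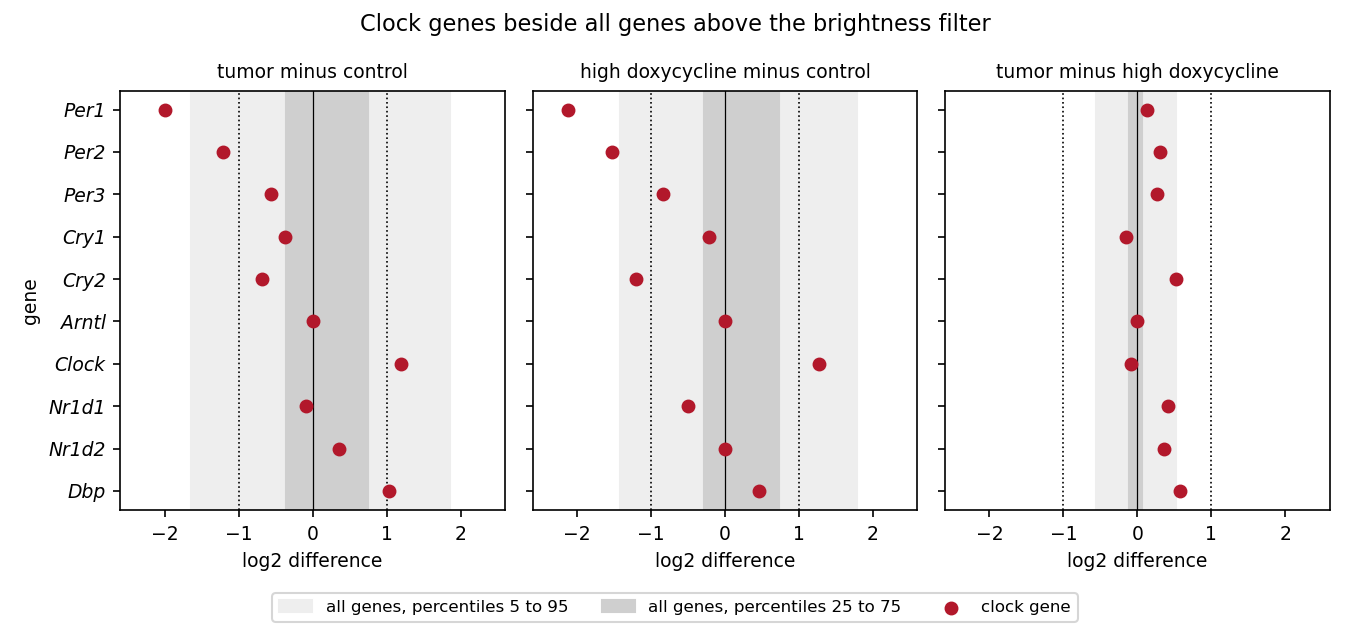
Log2 difference of each clock gene (red points) in the 3 comparisons, with the range of all bright genes behind (light band, percentiles 5 to 95; dark band, percentiles 25 to 75) and dotted lines at 2-fold. Per1 lay outside the light band in both comparisons with control (-1.99 and -2.12), Per2 in the second (-1.52), and no member reached 2-fold between tumor and high doxycycline.

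The comparison of the arrays labelled tumor and high doxycycline has the narrowest spread, and it rests on the labels of these arrays like the others. No member differed by 2-fold, against 1.58% of 11212 bright genes that were brighter on tumor by that margin and 1.94% that were dimmer. Differences were above 0 for 7 of 10 members, against 33.1% of bright genes, and below 0 for 2, Cry1 (-0.15) and Clock (-0.080), against 40.6%. Equal values accounted for 26.3% of bright genes here, and Arntl was among them. The median over the members was 0.29, against 0 over all bright genes. The largest differences belonged to Dbp (0.57, 1.49-fold brighter on tumor), Cry2 (0.52, 1.43-fold), Nr1d1 (0.41, 1.33-fold) and Nr1d2 (0.36, 1.28-fold). These 4 went beyond percentile 90 of the probe set range, which was 0.32 here. How far the equal values narrowed that range was not tested, so that passing it does not set these members apart. Of bright genes, 4.35% had a higher difference than Dbp, 5.07% than Cry2 and 7.05% than Nr1d1. Per2 (0.30), Per3 (0.27) and Per1 (0.12) lay within that range.

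Other components of the clock were taken from a list of 23 genes, of which 19 were measured and 4 are not analysed here. Their median difference was 0.35 both for tumor against control (0.21 to 0.59 over the settings tried) and for high doxycycline against control (0.21 to 0.58). Bhlhe41 (DEC2), an E-box repressor, had 1718 on the array labelled tumor, 992 on high doxycycline and 369 on control. It was 4.64-fold brighter on tumor than on control and 2.68-fold brighter on high doxycycline than on control, and it was dimmest on the array where the Period genes were brightest. Its paralogue Bhlhe40 had 1592, 1592 and 1507 in that order of arrays.

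Nfil3 (E4BP4), which represses through the D-boxes that DBP activates, had 771 on the array labelled tumor, 1807 on high doxycycline and 3336 on control. The 3 arrays were well separated, and Nfil3 was 4.32-fold dimmer on tumor than on control and 2.34-fold dimmer on tumor than on high doxycycline. Dbp had the opposite order of arrays. The other D-box activators moved less: Tef had 959, 791 and 966 and Hlf 230, 205 and 326 on tumor, high doxycycline and control. Of genes that set the stability of clock proteins, Fbxl21, a ubiquitin ligase subunit that acts on cryptochromes, had 530 on tumor, 436 on high doxycycline and 205 on control (2.58-fold and 2.12-fold brighter than control). Nono, an RNA-binding partner of the Period proteins, had 4800, 5463 and 2549 in that order and passed 2-fold for high doxycycline against control (2.14-fold). In all, 2 of these 19 genes were at least 2-fold brighter and 1 dimmer on tumor than on control, 3 were brighter and 0 dimmer on high doxycycline than on control, and between tumor and high doxycycline only Nfil3 passed. The shares over all bright genes were 18.5% brighter and 10.2% dimmer in the first of these comparisons and 17.4% and 8.45% in the second. The count of 2 brighter on tumor became 4 with arrays scaled to a common median and 1 with the filter at percentile 75. In these settings 23.0% and 24.0% of all bright genes were brighter by that margin. The kinase gene Csnk1d and the Arntl activator Rora had equal values on all 3 arrays.

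Clock output genes were taken from a list of 12, of which 10 were measured (Por and Cdkn1a are not analysed here) and 8 were bright in the comparisons with control. Nampt, which makes a precursor of NAD and is an E-box target, had 2452 on the array labelled tumor, 1667 on high doxycycline and 563 on control, 4.35-fold and 2.96-fold brighter than control. Wee1, a kinase that holds back mitosis and is also an E-box target, had 1222 on tumor, 993 on high doxycycline and 494 on control (2.47-fold and 2.01-fold brighter). Pdk4, a mitochondrial kinase that spares glucose, had 142 on tumor, 98.2 on high doxycycline and 804 on control. It was bright on control and below the array median on the other arrays (5.64-fold and 8.11-fold dimmer). Nampt and Wee1 thus had the order of arrays of Dbp, highest on tumor and lowest on control. The list's median was -0.14 for tumor against control and -0.13 for high doxycycline against control, and turned to 0.048 and 0.013 with arrays scaled to a common median and to -0.42 and -0.39 under quantile normalization.

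**Figure D3:**
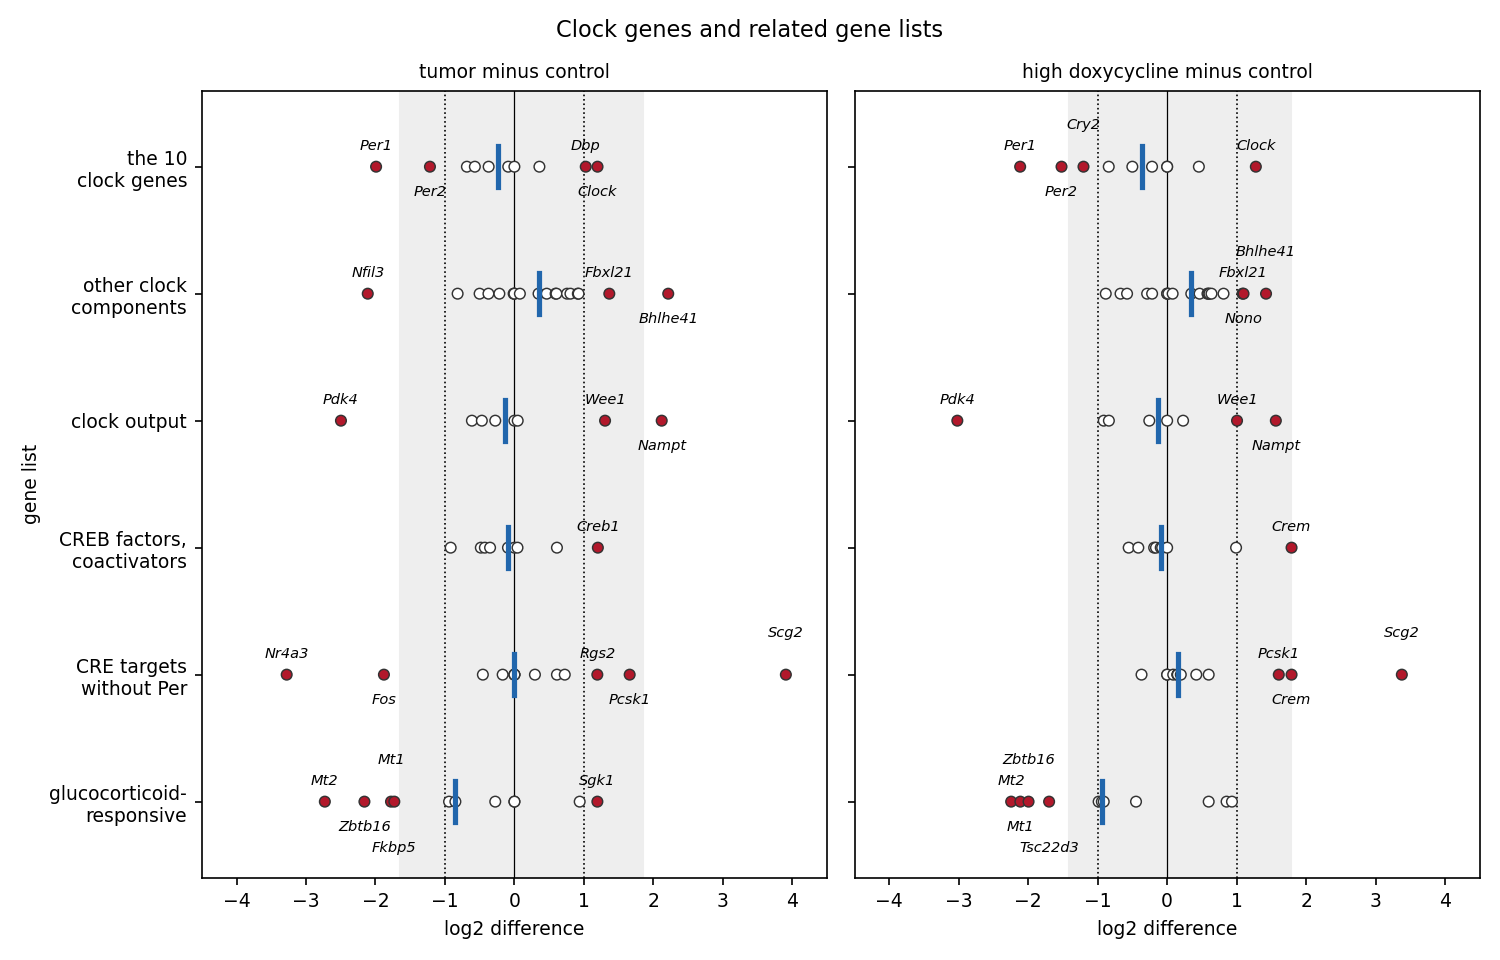
Log2 differences of the bright genes of each list for tumor minus control (left) and high doxycycline minus control (right), with filled points and names for genes that differ by at least 2-fold, a blue bar at each list's median and a grey band from percentile 5 to 95 of all bright genes. The 10 clock genes spread to both sides, with a median of -0.23 and -0.36, and the glucocorticoid-responsive list had medians of -0.85 (-0.28 with the filter at percentile 75) and -0.94.

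The CREB arm was described because Per1 and Per2 are known CRE genes. Of 9 genes for CREB factors and coactivators, all bright, 1 was at least 2-fold brighter and 0 dimmer in each comparison with control. Over all bright genes, 18.5% were brighter and 10.2% dimmer by that margin for tumor, and 17.4% and 8.45% for high doxycycline. The median was -0.092 both for tumor and for high doxycycline against control, and turned to 0.093 and 0.049 with arrays scaled to a common median and to -0.38 and -0.40 under quantile normalization. Creb1 had 1264 on the array labelled tumor, 1094 on high doxycycline and 549 on control (2.30-fold and 1.99-fold brighter than control), opposite to Per1 and Per2. Crem, whose short ICER forms repress CRE genes, had 711 on tumor, 1610 on high doxycycline and 464 on control, 3.46-fold brighter on high doxycycline than on control and 2.26-fold dimmer on tumor than on high doxycycline. Per1 and Per2 did not share this peak on the array labelled high doxycycline, where both had their lowest value. Atf1, the fusion partner, had 933, 1063 and 1189 on tumor, high doxycycline and control, and the labels do not say whether its probe set detects the transgene.

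Among 14 CRE target genes outside the Period family, 13 were bright in the comparisons with control. On tumor against control 3 were at least 2-fold brighter and 2 dimmer (median 0.00092). On high doxycycline against control 3 were brighter and 0 dimmer (median 0.15). The brighter genes on high doxycycline include Crem, which was also counted among the CREB factors. Over all bright genes the shares were 18.5% brighter and 10.2% dimmer for tumor and 17.4% and 8.45% for high doxycycline. Over the settings tried, the median ran from -0.12 to 0.30 for tumor and from -0.12 to 0.29 for high doxycycline against control. The prohormone gene Scg2 (6559 on tumor, 4544 on high doxycycline and 436 on control) was dimmest on control, where Per1 was brightest. So was Pcsk1 (8593, 8286 and 2720), the gene of a protease that cuts prohormones. Rgs2, a regulator of G-protein signalling, had 5153 on tumor, 2504 on high doxycycline and 2252 on control. Fos, an AP-1 subunit, had 302, 1234 and 1114 and the orphan receptor gene Nr4a3 had 325, 3357 and 3160 in the same order. Both were low on tumor alone, where Per1 was low on tumor and on high doxycycline. No bright gene of this list was at least 2-fold dimmer than control on both arrays, as Per1 was. When all probe sets of a gene were averaged, 5 in place of 3 of these genes were at least 2-fold brighter on tumor than on control. The share over all bright genes was then 18.6%.

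Glucocorticoids are the other acute inducers of Per1, and 11 of 12 listed responsive genes were measured, all bright in the comparisons with control. Their median difference was -0.85 for tumor against control and -0.94 for high doxycycline against control, with 4 genes at least 2-fold dimmer in each and 1 and 0 brighter. Over all bright genes, 10.2% and 8.45% were dimmer by that margin and 18.5% and 17.4% brighter. With the filter at percentile 75 the median for tumor was -0.28, and under quantile normalization 7 genes were dimmer on high doxycycline. The count of 1 brighter on tumor became 2 with arrays scaled to a common median and 0 under quantile normalization. The shares over all bright genes were 23.0% and 16.2% in these settings. The metallothionein gene Mt2 had 2140 on the array labelled tumor, 2992 on high doxycycline and 14191 on control, and Mt1 had 2628, 2080 and 9003. The zinc finger gene Zbtb16 had 139, 156 and 625 in that order, and was bright only on control. Fkbp5, a co-chaperone of the glucocorticoid receptor, had 821 on tumor, 1374 on high doxycycline and 2723 on control (3.31-fold and 1.98-fold dimmer than control). Tsc22d3 (GILZ), an anti-inflammatory target of that receptor, had 618 on tumor, 343 on high doxycycline and 1115 on control (1.80-fold and 3.25-fold dimmer). Sgk1, a kinase induced by the same hormones, went the other way, with 1829 on tumor, 1526 on high doxycycline and 799 on control. Mt1, Mt2, Zbtb16, Fkbp5 and Tsc22d3 were thus brightest on control, as Per1 and the tissue marker sums were.

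By the distance between log2 values centred over the 3 arrays, the 5 genes most like Per1 were Cox6a2, the heart and muscle form of a cytochrome oxidase subunit, Xirp2, an actin-binding protein gene of striated muscle, Smpdl3a, a phosphodiesterase gene, Chchd10, a mitochondrial protein gene, and Xdh, xanthine dehydrogenase. Their distances were 0.046, 0.046, 0.054, 0.075 and 0.082 on the log2 scale. Xdh had 870 on the array labelled tumor, 862 on high doxycycline and 3662 on control, and Cox6a2 had 201, 188 and 839. A gene could enter this search by being above the median of a single array. Cox6a2, Xirp2 and Smpdl3a were above it on control alone, whereas Per1 and Xdh were above it on all 3 arrays. Chchd10 lay close to the median on tumor and high doxycycline. The skeletal muscle marker sum given above was likewise highest on control, and its part in these matches was not tested. How easily a match as close as these 5 is met with 3 arrays was not tested. Within the wider distance of 0.5 lay 283 of 11592 candidate genes. Clock and Bhlhe41 had no place among them, since both were dimmest on control.

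**Figure D4:**
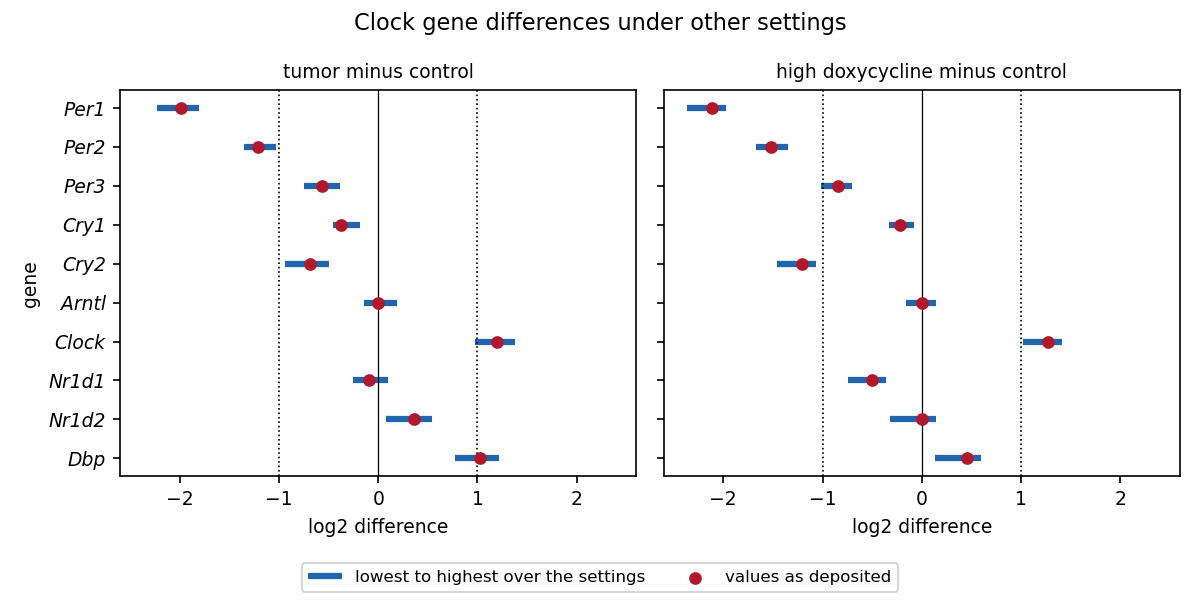
Log2 difference of each clock gene with values as deposited (red points) and the lowest to highest value over the other settings tried (blue lines), with dotted lines at 2-fold. Per1 stayed between -2.23 and -1.81 for tumor minus control and between -2.36 and -1.97 for high doxycycline minus control, and Dbp and Clock crossed the 2-fold line in the first comparison.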

How the data were processed

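Intensities of 28856 probe sets on MoGene-1_0-st-v1 arrays were deposited by the authors on a linear scale, in 1 table. Per the labels, column-purified RNA was labelled with biotin. Background correction, summarisation and scaling between arrays are not stated there. Groups were read from the sample titles.

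Probe sets were named through the platform annotation. Of them 21789 had 1 gene symbol, 1621 several and 5446 none, and the last 2 kinds were left out. Where a gene had more than 1 probe set (999 genes), that of the highest mean log2 value over the 3 arrays stood for it. A pseudocount of 1 was added before log2. Python 3.11.15, pandas 2.3.3 and NumPy 2.4.6 were used, and the calculation was tested on simulated data.

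The named genes are all members, every bright gene of the 5 related gene lists that differed by at least 2-fold in some comparison, and the 5 genes nearest to Per1. Cell type markers are given as sums. Genes named beyond this rule (Bhlhe40, Tef, Hlf, Csnk1d, Rora, Atf1, Lyz2, C1qa, Mb and Cd14) were chosen after their values were seen. Members and lists were chosen with earlier results of these data known. The lists share genes, so that their counts and medians are not separate. Crem is among the CREB factors and the CRE targets. Dusp1 is among the CRE targets and the glucocorticoid-responsive genes, and Klf9 among the latter and the clock output genes.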

Additional observations from a re-analysis of the deposited data

How the results depend on the processing

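Arrays were also scaled to a common median or by quantiles, the brightness filter was dropped or raised to percentile 75, probe sets of a gene were averaged or genes limited to those with 1 probe set, and the pseudocount was set to 16 or 64. Under the common median, the median of all bright genes became 0.26 for tumor against control and 0.22 for high doxycycline against control, in place of 0.075 and 0.083. The number of clock genes at least 2-fold brighter on tumor than on control was 2 as deposited, 0 under quantile normalization and 1 with a pseudocount of 64. The median of the clock genes for tumor against high doxycycline was 0.29 as deposited and 0.39 with the filter at percentile 75, where fewer members were left. The other 69 recomputed counts and medians of the clock genes kept to a limit. For counts it was 1.5 times, and for medians the median probe set disagreement of the comparison. That disagreement was 0.38 (tumor minus control), 0.37 (high doxycycline minus control) and 0.055 (tumor minus high doxycycline). With control it was as large as the members' medians (-0.23 and -0.36), so that keeping to it says little there. The median of -0.23 went to -0.044 under the common median, and that of -0.36 to -0.67 with the filter at percentile 75. Each member has 1 probe set, so the settings for the filter and for probe sets returned its deposited difference or left it out. All members were bright, so dropping the filter and both settings for probe sets could not change the counts and medians above. Only the scalings and pseudocounts could change a member, and the counts of settings that follow are to be read so. Per1 and Per2 were at least 2-fold dimmer than control under all 9 settings in both comparisons, and Cry2 in all 9 for high doxycycline. Per3 passed 2-fold for high doxycycline under quantile normalization alone (-1.02). Clock was at least 2-fold brighter than control in 8 of 9 settings for tumor and in all 9 for high doxycycline, and Dbp in 7 of 9 for tumor. Nr1d1 for tumor against control was -0.089 as deposited and 0.097 under the common median. The equal values of Arntl became -0.14 under quantile normalization and 0.19 under the common median for tumor against control. No paired analysis was possible because each group has 1 array.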
